A study of Mus musculus with 2 samples.

Results

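Of the 32285 genes counted in single-cell libraries of mouse knee joints, 9 were followed here, the complement components C1qa, C1qb, C1qc, C1ra, C1s1, Serping1, C4b, C3 and Cfb. The 9 members were found by their gene symbols in the list of counted genes, and all 9 were present. The joints came from pups at postnatal day 7, of both sexes, in 2 groups: Col12a1 KO mice, in which the collagen XII gene is knocked out, and WT mice. The labels describe 3 libraries of each genotype, 1 in a first experiment and 2 in a second, made from hindlimb knees without skin or paws after 6 h in collagenase II at 4 mg/mL. All libraries were deposited as 1 merged matrix of 24203 cell barcodes, and each barcode ends in a number that parts the cells into barcode sets 1 and 2.

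Nothing in the labels ties a barcode set to a genotype, so KO and WT cells were not compared, and the matrix counts as 1 sample. Values are over both sets together, with the value in each set beside those the results turn on. Intervals hold counting error alone, and no p-value was computed because cells of 1 sample are not replicates. After filtering, 15171 cells remained (7158 in set 1 and 8013 in set 2), with a median of 10961 unique molecular identifiers (UMIs, one per captured RNA molecule) per cell in set 1 and 9623 in set 2. Of the barcode sequences, 40 occurred in both sets, 14 of them among kept cells. The 33 clusters included chondrocyte-like, osteoblast-like, tenocyte-like or ligament-like and synovial lining fibroblast-like cells of the joint, and also skeletal muscle and blood cells. The doublet caller marked only 3 of 15174 cells, so doublets were in effect not removed.

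Complement is a chain of serum proteins that tags cells and debris for uptake, draws in leukocytes and can lyse membranes. In its classical pathway C1q, built of A, B and C chains, recognises a target, the proteases C1r and C1s bound to it cleave C4 and C2, and the resulting enzyme cleaves C3. In the alternative pathway factor B binds cleaved C3 and amplifies the deposit, and the C1 inhibitor holds C1r and C1s in check. Liver makes most circulating complement, while tissue macrophages are the best known source of C1q and fibroblasts are known to make C1r, C1s and C1 inhibitor.

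The members lie on 4 chromosomes (build mm10, GENCODE M21 annotation). C1qa (chr4:136895917-136898803), C1qc (chr4:136889804-136893065) and C1qb (chr4:136880129-136886187) sit side by side on the minus strand, with 2851 bases between C1qa and C1qc and 3616 between C1qc and C1qb. On chromosome 6, C1ra (chr6:124512405-124523443, plus strand) and C1s1 (chr6:124530345-124542359, minus strand) are 6901 bases apart. C4b (chr17:34728380-34743882) and Cfb (chr17:34856374-34862518) lie 112491 bases apart, and C3 (chr17:57203970-57228136) is farther along the same chromosome, all 3 on the minus strand. Serping1 (chr2:84765387-84775444, minus strand) encodes the C1 inhibitor.

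RefSeq (GRCm38.p6) gave the 250 bases before the start of 5 members, shown so that the neighbours C1qb and C1qc, and the neighbours C1ra and C1s1, can be set beside each other and beside C3. The sequences run 5′ to 3′ on the gene's strand, and capitals mark matches, on either strand, to 4 letter patterns: the PU.1 core GAGGAA, the NF-kB pattern of GGGA and CC with any 4 bases between them, the C/EBP pattern of TTGC and AA with any 2 bases between them, and the interferon response pattern of GAAA and GAAA with any 2 bases between them. PU.1 is a factor of myeloid cells, and NF-kB, C/EBP and the interferon response factors act in inflammation.
C1qb (chr4:136886201-136886450, minus strand): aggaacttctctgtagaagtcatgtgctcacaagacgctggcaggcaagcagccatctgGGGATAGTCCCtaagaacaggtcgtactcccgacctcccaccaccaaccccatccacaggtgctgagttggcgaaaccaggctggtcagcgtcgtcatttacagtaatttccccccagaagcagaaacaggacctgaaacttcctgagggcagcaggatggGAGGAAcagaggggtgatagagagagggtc
C1qc (chr4:136892915-136893164, minus strand): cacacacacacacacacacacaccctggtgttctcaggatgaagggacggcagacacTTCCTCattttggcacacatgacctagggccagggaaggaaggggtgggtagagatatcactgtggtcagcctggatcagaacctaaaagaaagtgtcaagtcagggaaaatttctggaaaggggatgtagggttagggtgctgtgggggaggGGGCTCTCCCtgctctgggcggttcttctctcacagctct
C1ra (chr6:124512371-124512620, plus strand): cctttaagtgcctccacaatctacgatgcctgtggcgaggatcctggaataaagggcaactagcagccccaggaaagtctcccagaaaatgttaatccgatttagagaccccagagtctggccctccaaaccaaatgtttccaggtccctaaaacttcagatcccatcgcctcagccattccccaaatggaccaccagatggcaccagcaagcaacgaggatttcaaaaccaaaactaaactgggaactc
C1s1 (chr6:124542360-124542609, minus strand): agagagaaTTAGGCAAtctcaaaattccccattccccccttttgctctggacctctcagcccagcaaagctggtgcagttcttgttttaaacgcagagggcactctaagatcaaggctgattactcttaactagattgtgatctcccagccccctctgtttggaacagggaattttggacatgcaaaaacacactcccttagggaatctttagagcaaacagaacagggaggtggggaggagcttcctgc
C3 (chr17:57228137-57228386, minus strand): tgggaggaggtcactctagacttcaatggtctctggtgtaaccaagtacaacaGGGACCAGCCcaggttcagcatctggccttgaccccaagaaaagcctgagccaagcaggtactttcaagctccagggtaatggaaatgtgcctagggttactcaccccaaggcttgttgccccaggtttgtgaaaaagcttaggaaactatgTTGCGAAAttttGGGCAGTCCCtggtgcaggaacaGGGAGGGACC
The windows of C1qb and C1qc each held 1 PU.1 core, 30 bases before the start in C1qb and 193 in C1qc, and each held an NF-kB pattern, which in C1qb matched on both strands in overlapping positions. The C3 window held 3 NF-kB patterns, beginning 197, 33 and 10 bases before the start, and 1 C/EBP pattern 45 bases before it. The window of C1s1 held 1 C/EBP pattern, that of C1ra held none of the 4 patterns, and none of the 5 held the interferon pattern. These patterns are common: among 32851 promoter windows of the same length, 23.3% held the PU.1 core, 17.6% the NF-kB pattern, 9.56% the C/EBP pattern and 2.98% the interferon pattern. A match describes the letters in the window and does not show a bound site. The windows of C1qc and C1ra reach into the longer GENCODE gene spans.

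The split between macrophages and fibroblasts was examined first. The macrophage-like class was 1 cluster of 760 cells (5.01% of kept cells, 329 in set 1 and 431 in set 2, median 10544 UMIs), and the fibroblast-like class was clusters 1 and 0 together, with 2619 cells (17.3%, 1165 and 1454, median 16310 UMIs). The 9 members and the 44 other complement genes compared below were left out of the clustering, and no member served as a marker. All 10 macrophage markers were at least 2-fold higher in the macrophage-like cells, with a summed level of 3491 CPM against 52.8 CPM in the fibroblast-like cells. All 10 fibroblast markers were at least 2-fold higher in the fibroblast-like cells, with 115 CPM in the macrophage-like cells and 4388 CPM in the fibroblast-like cells. The same markers had named the clusters, so these values describe the classes and are no separate check of their names. CPM, the level used throughout, is the summed UMIs of a gene in a class for every 1e+06 UMIs of that class.

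A gene was called higher or lower when its ratio between the classes was at least 2 or at most 0.5, its 95% interval left out 1, both sets agreed in direction and at least 100 UMIs stood behind it. By this rule the 3 C1q chains were higher in macrophage-like cells, Serping1, C1s1, C1ra and C3 were lower, and C4b and Cfb were not called. Across the 12842 genes with enough UMIs, 13.9% were called higher and 35.6% lower in macrophage-like cells, so 4 lower members of 9 is near the background. The median log2 ratio, with 10 CPM added to each side, was -0.61 over the members and -0.24 over all these genes.

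**Figure D1:**
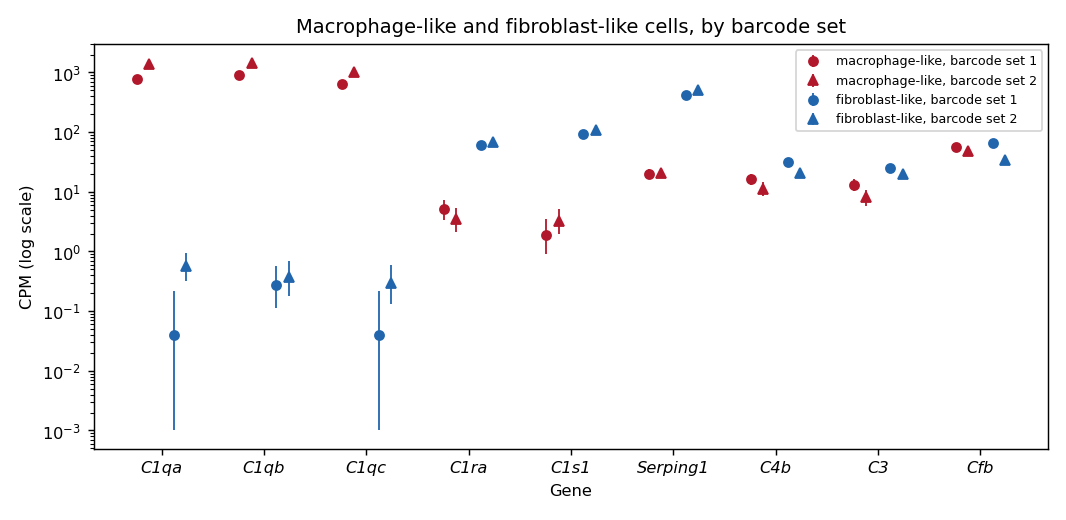
Level of each member in macrophage-like (red) and fibroblast-like (blue) cells, in CPM on a log axis, with circles for barcode set 1 and triangles for set 2. Bars are 95% Poisson intervals; the C1q chains stand near 1000 CPM in macrophage-like cells and below 1 CPM in fibroblast-like cells, C1ra, C1s1 and Serping1 stand higher in fibroblast-like cells, and Cfb overlaps.

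The C1q chains form the recognition part of the first complement complex. C1qa measured 1092 CPM in macrophage-like cells (776 in set 1 and 1398 in set 2) against 0.309 CPM in fibroblast-like cells (0.0396 and 0.566). The ratio was 3532 (95% interval 2174 to 6181). C1qb measured 1176 CPM in macrophage-like cells (899 and 1445) and 0.328 CPM in fibroblast-like cells (0.277 and 0.377), a ratio of 3579 (2235 to 6146). C1qc measured 841 CPM in macrophage-like cells (642 and 1035) and 0.174 CPM in fibroblast-like cells (0.0396 and 0.302), a ratio of 4839 (2548 to 10585). Both sets showed the same split, and all 3 chains were higher in set 2 than in set 1 among the macrophage-like cells. C1qa, C1qb and C1qc had 16, 17 and 9 UMIs in fibroblast-like cells. Their CPM there was no higher than in erythroid-like and B cell-like cells together (0.577, 0.525 and 0.367 CPM). The fibroblast values are therefore not read as expression, and whether free RNA or doublets gave them was not tested. The macrophage-like class, 5.01% of kept cells, held 96.1% of all C1qa UMIs, 93.8% of C1qb and 96.5% of C1qc.

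C1r and C1s are the serine proteases of the first complex, encoded in the mouse by C1ra and C1s1 and by the near-copies C1rb and C1s2. C1s1 measured 2.60 CPM in macrophage-like cells (1.89 in set 1 and 3.30 in set 2) against 99.6 CPM in fibroblast-like cells (91.4 and 107), which is 38.3-fold lower (95% interval 26.5 to 57.7). C1ra measured 4.27 CPM in macrophage-like cells (5.09 and 3.48) against 64.0 CPM in fibroblast-like cells (60.5 and 67.3), 14.97-fold lower (11.2 to 20.5). The sets did not overlap between the classes for either gene. C1rb had 0 UMIs in macrophage-like cells and 3 in fibroblast-like cells and C1s2 had 0 in macrophage-like cells and 8 in fibroblast-like cells, so few reads were assigned to the copies, but no source used here says how the counting split shared reads. Gm16567, which lies antisense to C1s1, had 0 UMIs in macrophage-like cells and 12 in fibroblast-like cells.

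Serping1, the inhibitor of both proteases, was the member with the most UMIs. It measured 20.3 CPM in macrophage-like cells (19.8 in set 1 and 20.9 in set 2) against 470 CPM in fibroblast-like cells (421 and 517), 23.1-fold lower (95% interval 20.2 to 26.5). Erythroid-like and B cell-like cells measured 20.7 CPM of Serping1, 4.46 CPM of C1s1 and 2.36 CPM of C1ra, so the macrophage values of Serping1 and C1s1 were no higher than in those cells. A small sub-cluster of 31 macrophage-like cells, led by Col1a2 and Col1a1 and with a median of 24441 UMIs, measured 198 CPM of Serping1, 30.7 of C1ra and 25.6 of C1s1. Without those cells the macrophage-like level was 2.55 CPM for Serping1, 1.64 CPM for C1ra and 0.307 CPM for C1s1.

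C4b, C3 and Cfb are the members that the proteases or the alternative pathway act on. C4b, one of 2 mouse C4 genes, measured 13.7 CPM in macrophage-like cells (16.2 in set 1 and 11.2 in set 2) and 26.1 CPM in fibroblast-like cells (32.0 and 20.4), a ratio of 0.524 (95% interval 0.439 to 0.621) that missed the threshold. Without the collagen-led sub-cluster C4b was 10.2 CPM in macrophage-like cells and then counted as lower. The copy C4a had 4 UMIs in macrophage-like cells and 23 in fibroblast-like cells. C3, the protein on which all pathways converge, measured 10.6 CPM in macrophage-like cells (13.2 and 8.06) and 22.3 CPM in fibroblast-like cells (24.997 and 19.7), 2.10-fold lower (1.73 to 2.57). This call held under 9 of 22 alternative settings, and it was lost without set 2, with a log2 ratio of -0.59, and when cluster 1 lost its name, with 0.42. Cfb, encoding factor B, measured 51.8 CPM in macrophage-like cells (55.4 and 48.2) and 50.2 CPM in fibroblast-like cells (66.6 and 34.7), a ratio of 1.03 (0.939 to 1.13). Its sets overlapped between the classes and its direction differed between them, with a ratio of 0.833 in set 1 and 1.39 in set 2.

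Shares of cells with at least 1 UMI gave the same order once every cell was thinned to 2000 UMIs, which left 743 macrophage-like and 2610 fibroblast-like cells. C1qb was found in 78.9% of macrophage-like cells (95% Clopper-Pearson interval 75.8 to 81.8) and 0.153% of fibroblast-like cells. C1qa was found in 68.8% and C1qc in 68.6% of the macrophage-like cells, against 0.0766% and 0.0383% of the fibroblast-like cells. All 3 chains were found in 371 of the 743 macrophage-like cells (49.9%), 2 chains in 192, 1 chain in 110 and none in 70. Serping1 was found in 1.21% of macrophage-like cells against 49.96% of fibroblast-like cells, and in 1.15% of erythroid-like cells. C1s1 was found in 0.404% of macrophage-like and 16.5% of fibroblast-like cells, and C1ra in 0.404% of macrophage-like and 11.5% of fibroblast-like cells. Cfb was found in 6.46% of macrophage-like cells (4.80 to 8.47) and 5.36% of fibroblast-like cells (4.53 to 6.30), which overlap.

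**Figure D2:**
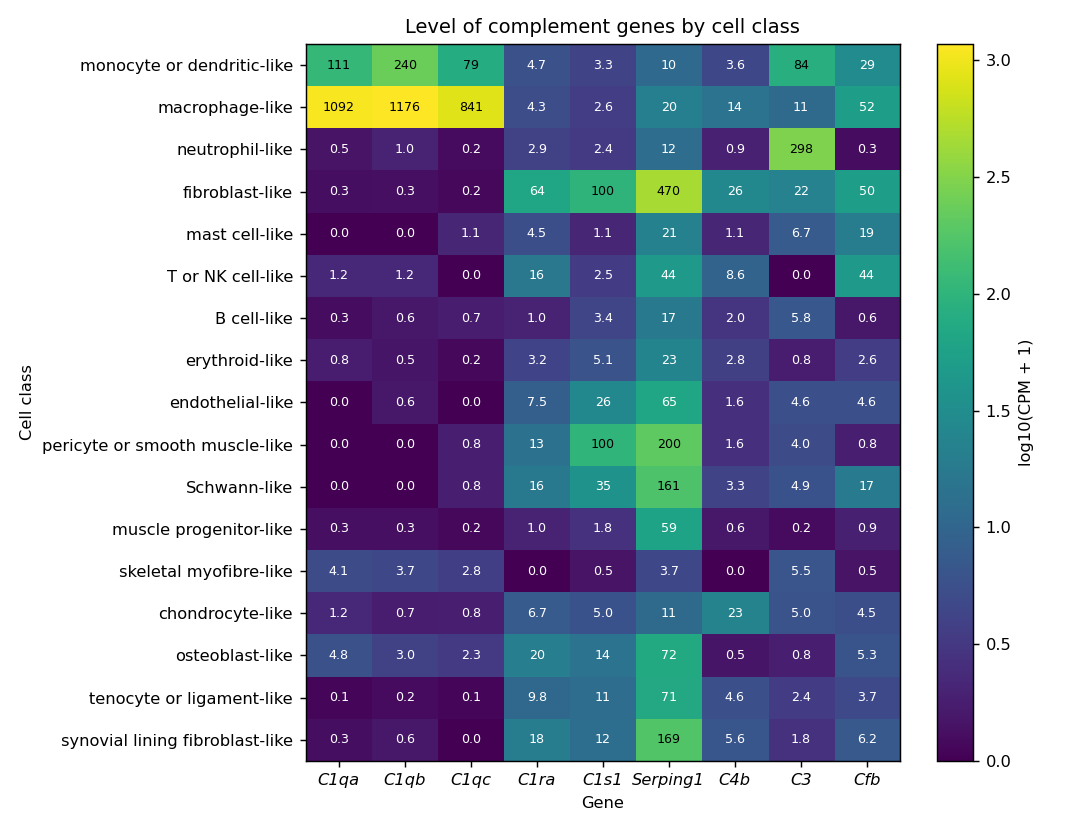
Level of the 9 members in 17 named cell classes; the number in each square is the CPM over both barcode sets and the colour is log10(CPM + 1). The C1q chains are high in the macrophage-like and lower in the monocyte-like or dendritic-like row, C3 is highest in neutrophil-like cells at 298 CPM, and Serping1 is highest in fibroblast-like cells at 470 CPM and above 150 CPM in pericyte-like, synovial lining and Schwann-like cells.

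Outside these 2 classes the members did not follow the same division. C3 was highest in neutrophil-like cells, a class of 1919 cells that held 67.3% of all C3 UMIs against 14.7% in fibroblast-like cells. It measured 298 CPM in neutrophil-like cells (319 in set 1 and 263 in set 2) and 22.3 CPM in fibroblast-like cells (24.997 and 19.7), a ratio of 13.4 (95% interval 12.5 to 14.3). Of 13257 genes, 16.3% were called higher and 50.3% lower in neutrophil-like cells. C3 was the one member called higher. Serping1, C1ra, C1s1, C4b and Cfb were called lower, Cfb with 0.282 CPM in neutrophil-like cells against 50.2 CPM in fibroblast-like cells, and the C1q chains had too few UMIs for a call. After thinning, C3 was found in 35.1% of neutrophil-like cells (32.9 to 37.4), 2.61% of fibroblast-like cells and 0.0606% of erythroid-like cells.

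C3 was present across clusters led by genes of different stages of neutrophil development. The unnamed cluster led by Elane and Prtn3, genes of the early granules, measured 125 CPM (166 in set 1 and 77.1 in set 2). The cluster led by Chil3 measured 368 CPM (381 and 346) and the one led by Ifitm6 and Ltf, a gene of the later granules, 412 CPM (426 and 376). The cluster led by Slc2a3 and Mmp8 measured 161 CPM (152 and 168), and the one led by Asprv1 and Retnlg, with the receptor gene Cxcr2, 262 CPM (278 and 225). All 5 lay above the 2 fibroblast-like clusters in both sets. Monocyte-like or dendritic-like cells measured 84.0 CPM of C3 (83.7 and 84.2) against 10.6 CPM in macrophage-like cells (13.2 and 8.06), a ratio of 7.93 (6.31 to 10.0). Summed neutrophil markers in monocyte-like or dendritic-like cells were 3681 CPM in set 1 and 516 CPM in set 2, and in neutrophil-like cells 231344 and 251915 CPM. Their part in the C3 of the monocyte-like or dendritic-like cells was not tested. Over 8159 genes, 13.3% were called higher in that comparison and 13.5% lower.

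**Figure D3:**
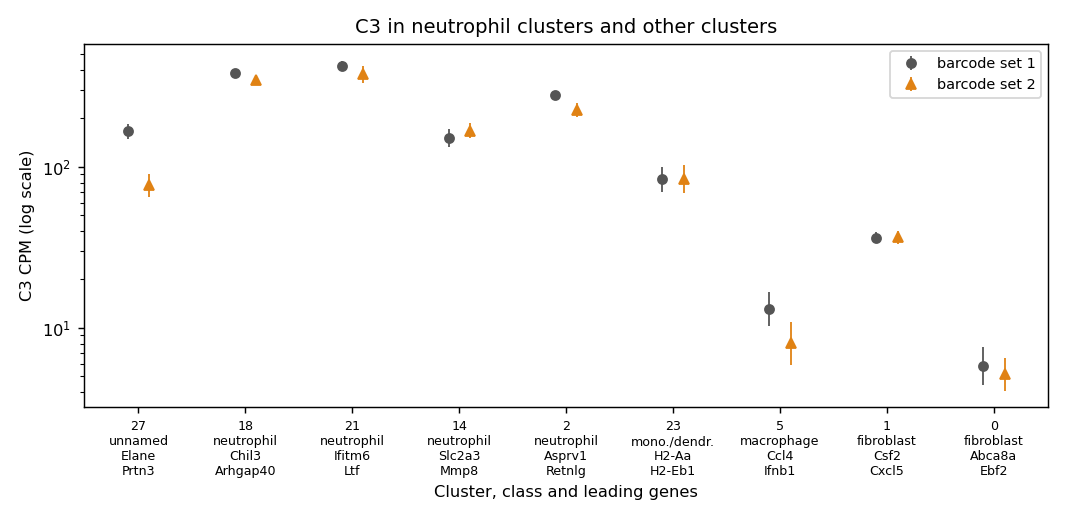
C3 level, in CPM on a log axis, in the 4 neutrophil-like clusters, the unnamed cluster led by Elane, and 4 other clusters, with circles for barcode set 1, triangles for set 2 and 95% Poisson bars. The neutrophil-like clusters lie between 152 and 426 CPM in the single sets, above every other cluster shown except the one led by Elane, which reached 166 CPM in set 1.

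C1q in the monocyte-like or dendritic-like class was lower and differed in make-up. C1qb measured 240 CPM in these 204 cells (311 in set 1 and 146 in set 2) against 1176 CPM in macrophage-like cells, 4.90-fold lower (95% interval 4.53 to 5.31), or 2.89-fold in set 1 and 9.91-fold in set 2. C1qa measured 111 CPM in monocyte-like or dendritic-like cells (155 and 51.4) against 1092 CPM in macrophage-like cells, 9.86-fold lower, or 4.995-fold in set 1 and 27.2-fold in set 2. C1qc measured 79.2 CPM in monocyte-like or dendritic-like cells (108 and 41.3) against 841 CPM in macrophage-like cells, 10.6-fold lower, or 5.95-fold in set 1 and 25.1-fold in set 2. All 3 chains were lower in both sets, by a size that differed between the sets. Of the C1q UMIs, C1qb made up 55.8% in monocyte-like or dendritic-like cells (52.9 to 58.7) and 37.8% in macrophage-like cells (37.3 to 38.3). The difference was seen in both sets, with 54.1% in set 1 and 61.1% in set 2 in monocyte-like or dendritic-like cells and 38.8% and 37.3% in macrophage-like cells. In all remaining cells, 449 C1q UMIs were made up of 37.9% C1qb (33.4 to 42.5), a share that includes the macrophage-like value. After thinning, 160 of 190 monocyte-like or dendritic-like cells held no C1q UMI, so the signal came from few cells. These shares come from tags at the transcript's 3′ end, and capture can differ between genes, so they are compared between classes and not between chains.

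C4b was spread over fibroblast-like and chondrocyte-like cells. Fibroblast-like cells held 48.7% of its UMIs and chondrocyte-like cells 21.6%. Within chondrocyte-like cells the cluster led by Matn1 and Snorc measured 33.9 CPM (40.3 in set 1 and 25.7 in set 2), while the cluster led by Cytl1 and Prg4, which marks the joint surface, measured 10.0 CPM. Osteoblast-like cells measured 0.494 CPM and tenocyte-like or ligament-like cells 4.57 CPM of C4b. Erythroid-like and B cell-like cells measured 2.47 CPM. The Matn1-led cluster carried 3308 CPM of summed neutrophil markers, and neutrophil-like cells measured 0.902 CPM of C4b. The part of neutrophil RNA in the C4b value was not tested.

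C1s1 in pericyte-like cells, and Serping1 in pericyte-like, synovial lining and Schwann-like cells, also had high levels. Pericyte-like or smooth muscle-like cells, 109 in number, measured 100 CPM of C1s1 (74.6 in set 1 and 130 in set 2), close to the 99.6 CPM of fibroblast-like cells, while their C1ra was 13.5 CPM against 64.0 CPM in fibroblast-like cells. Serping1 measured 199.9 CPM in pericyte-like cells (197 and 203), 169 CPM in synovial lining fibroblast-like cells (115 and 197) and 161 CPM in Schwann-like cells (119 and 188). These 3 overlapped in set 2 and all lay below fibroblast-like cells. Cfb measured 44.2 CPM in T or NK cell-like cells, from 36 UMIs in set 1 and 0 in set 2. It measured 29.3 CPM in monocyte-like or dendritic-like cells (26.0 in set 1 and 33.7 in set 2), against 1.84 CPM in erythroid-like and B cell-like cells.

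Macrophage-like cells were not uniform in C1q. The summed C1q level per cell had a median of 2600 CPM, with 447 CPM at the 10th and 8588 CPM at the 90th percentile, and 18 of 760 cells had none. They were divided into 6 sub-clusters without the complement genes. The 171 cells of sub-cluster 2, led by Rhoh, with Hpgd and Rgs2 also among its top genes, were the highest of the larger ones, with 2873 CPM of C1qa (2110 in set 1 and 3275 in set 2). They were 22.5% of the macrophage-like cells and held 44.6% of their C1qa UMIs. The scavenger receptor gene Mrc1 (1689 CPM) and Lyve1 (628 CPM), both of tissue-resident macrophages, were also highest there. The 113 cells of sub-cluster 3, led by the interferon-induced GTPase genes Iigp1 and Igtp, measured 366 CPM of C1qa (329 and 410) and 126 CPM of Cfb (120 and 133). Cfb in sub-cluster 2 was 15.9 CPM (11.1 and 18.4), so these sub-clusters ranked in opposite order for the 2 genes in both sets. Sub-cluster 3 held 54.4% of the Cfb UMIs of the macrophage-like cells. Its cells were deeper, with a median of 21215 UMIs against 8612 in sub-cluster 2, which raises its share of UMIs. Sub-cluster 1, with 214 cells led by the chemokine gene Ccl7 and with 4691 CPM of interferon beta (Ifnb1), measured 16.9 CPM of Cfb and 836 CPM of C1qa.

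**Figure D4:**
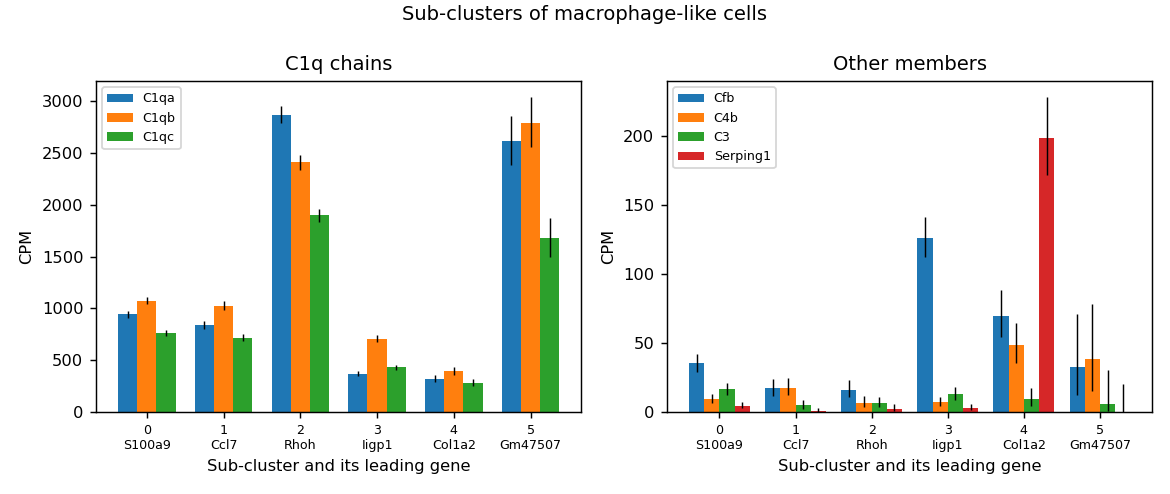
Level of the C1q chains (left) and of Cfb, C4b, C3 and Serping1 (right) in the 6 sub-clusters of macrophage-like cells, in CPM with 95% Poisson bars; each sub-cluster is labelled by its number and leading gene. C1q is highest in sub-clusters 2 and 5, Cfb is highest in sub-cluster 3 at 126 CPM, and Serping1 stands out in the collagen-led sub-cluster 4 at 198 CPM.

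Some sub-clusters carried genes of other cell types. The 214 cells of sub-cluster 0, led by S100a9, measured 3932 CPM of summed neutrophil markers, with 0 of 11 at 0, and 16.1 CPM of C3. In the other 5 sub-clusters the neutrophil markers summed to between 60.002 and 201 CPM and C3 was between 4.46 and 12.5 CPM. The collagen-led sub-cluster 4 measured 1161 CPM of summed fibroblast markers, against 5.46 to 27.1 CPM in the other 5. The part of these other cells' RNA in the C3 and Serping1 values was not tested beyond the level without sub-cluster 4 given above. Sub-cluster 5 had 17 cells.

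Within the fibroblast-like class, C3, Cfb and C4b were higher in one cluster than in the other, and C1ra, C1s1 and Serping1 were not called. Cluster 1 (1211 cells), led by the cytokine genes Csf2 and Cxcl5, was set against cluster 0 (1408 cells), led by Abca8a and Ebf2. The clusters were ordered by their C3 level, so the direction of C3 was set by that choice and its values are a description. C3 measured 36.5 CPM in cluster 1 (36.4 in set 1 and 36.7 in set 2) and 5.44 CPM in cluster 0 (5.84 and 5.17), a ratio of 6.72 (95% interval 5.59 to 8.13). Cfb measured 79.3 CPM in cluster 1 (97.9 and 55.1) and 15.9 CPM in cluster 0 (13.9 and 17.2), a ratio of 4.99 (4.47 to 5.58). C4b measured 35.8 CPM in cluster 1 (39.7 and 30.8) and 14.6 CPM in cluster 0 (19.1 and 11.6), a ratio of 2.46 (2.17 to 2.78). Cfb and C4b met the rule for a higher call, as did C3 by choice of the order, and Serping1 (0.809), C1ra (0.843) and C1s1 (0.549) were not called. Over 12177 genes, 10.8% were called higher in cluster 1 and 31.1% lower. Cluster 1 is made of several kinds of cells, and only 45.4% to 72.7% of its cells stayed together under other cell filters, seeds and components. Between the clusters matched to these by their cells, the ratio of C4b then ranged from 1.44 to 3.86 over 20 alternatives and that of Cfb from 0.96 to 7.38, so Cfb turned direction once. Some of the alternatives, such as those of the call rule, could not change these ratios.

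Genes of the acute phase and of interferon differed between the same clusters. Of 12 acute phase and NF-kB genes, 10 had enough UMIs and all 10 were called higher in cluster 1, against 10.8% of all genes. They included Saa3, an acute phase protein (591 CPM in cluster 1, with 831 in set 1 and 280.2 in set 2, and 26.3 CPM in cluster 0), Ptx3, a relative of C-reactive protein that binds C1q (4665 CPM in cluster 1 and 274 CPM in cluster 0), and Il6 (578 CPM in cluster 1 and 124 CPM in cluster 0). A second list of 9 genes held interferon genes and the C/EBP factors Cebpb and Cebpd, and 8 had enough UMIs. Of these, 5 were called higher, among them Ifit1, Ifit3, Isg15 and Irf7, Cebpd was called lower, and Irf1 and Cebpb were not called. Over all genes, 10.8% were called higher and 31.1% lower. Csf2, Cxcl5, Ptx3, Ccl2 and Saa3 of the first list are also among the genes that lead cluster 1. Both lists were chosen with earlier results of these data known, so their counts are a description of the cluster. Ifit1 measured 510 CPM in cluster 1 and 5.90 CPM in cluster 0. Cebpd, a factor of the C/EBP family, measured 304 CPM in cluster 1 and 611 CPM in cluster 0. Summed neutrophil markers were 806 CPM in cluster 1 and 409 CPM in cluster 0, and 239196 CPM in neutrophil-like cells.

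The fibroblast-like cells were then divided further, again without the complement genes, into 13 sub-clusters, of which 10 had 100 or more cells. C3 ranged from 1.44 CPM to 47.7 CPM over these 10, Cfb from 2.88 to 121 CPM and C4b from 0.549 to 60.3 CPM. Serping1 ranged from 359.8 to 922 CPM, a 2.56-fold range, C1ra over a 3.39-fold range and C1s1 from 35.9 to 235 CPM, a 6.55-fold range. In the same 10 sub-clusters the neutrophil markers summed to between 48.3 and 171 CPM, and their part in the C3 values was not tested. A small sub-cluster of 17 cells led by S100a9 had 45405 CPM of neutrophil markers and 80.2 CPM of C3, and held 3.99% of the C3 UMIs of fibroblast-like cells.

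C3, Cfb and C4b separated from one another at this level. The sub-cluster led by Rsad2, Iigp1 and Cxcl10, all induced by interferon, had both high C3 at 47.7 CPM (39.2 in set 1 and 55.8 in set 2) and high Cfb at 118 CPM (156 and 82.1), with 1103 CPM of Ifit1 and 1800 CPM of Saa3. The sub-cluster led by Plet1 and Fnip2 had the highest Csf2, at 1456 CPM, with 35.6 CPM of C3 but 29.6 CPM of Cfb (26.1 and 35.2). The sub-cluster led by Npy and Inhba had 34.1 CPM of C3 and 121 CPM of Cfb (140 and 80.3). Between these last 2, C3 differed by less than its counting interval while Cfb was higher in the second in both sets. C4b was highest in the sub-cluster led by Mecom, Aqp1 and Comp, at 60.3 CPM (71.5 and 53.7), where Cxcl5 was 4.13 CPM and Saa3 0.486 CPM. High C4b was therefore not limited to the cytokine-rich cells.

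C1ra, C1s1 and Serping1 had their highest levels in another group of fibroblast-like cells. The 200 cells led by Tenm2, Nr2f2, Tagln and Cldn1 measured 922 CPM of Serping1 (902 in set 1 and 939 in set 2), 235 CPM of C1s1 (259 and 214) and 107 CPM of C1ra (87.2 and 124). The sub-cluster led by Abca8a followed for C1s1 at 188 CPM (168 and 202). The lowest C1s1 and C1ra stood in the sub-cluster led by Tnfsf9 and Limch1, at 35.9 CPM and 31.5 CPM. The sub-cluster led by Dact2 and Tmem100, with the most Pi16 (1051 CPM) and Dpp4 (312 CPM), both markers of universal fibroblasts, measured 4.07 CPM of C3 and 8.54 CPM of Cfb.

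**Figure D5:**
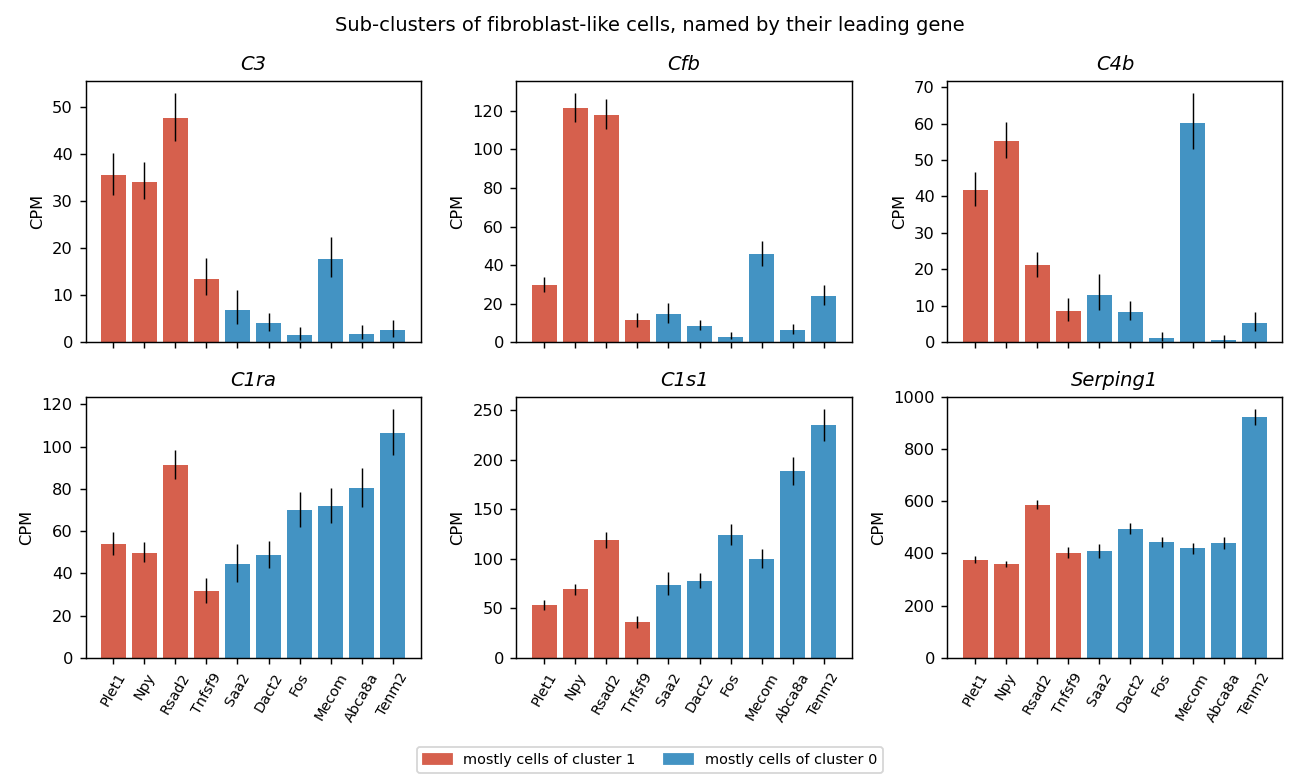
Level of 6 members in the 10 sub-clusters of fibroblast-like cells with 100 or more cells, in CPM with 95% Poisson bars; each sub-cluster is named by its leading gene, and the colour shows whether most of its cells came from cluster 1 (red) or cluster 0 (blue). C3 and Cfb are high in the red sub-clusters led by Npy and Rsad2, C4b is highest in the blue one led by Mecom, and C1ra, C1s1 and Serping1 are highest in the blue one led by Tenm2.

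The unnamed cluster led by Ccl11 and Sfrp4 (845 cells) had the fibroblast markers as its best match, with too small a median to be named. It measured 541 CPM of Serping1, 110 CPM of C1s1 and 65.5 CPM of C1ra, and 14.5 CPM of C3 (22.8 in set 1 and 8.88 in set 2), 31.3 CPM of Cfb and 21.4 CPM of C4b. Adding it and the other unnamed cluster of this kind to the fibroblast-like cells changed the C3 call to not called.

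Of 44 other complement genes, 21 had enough UMIs to compare macrophage-like with fibroblast-like cells. Of these, 10 were called higher, 8 lower and 3 were not called, or 47.6% and 38.1% against the background of 13.9% and 35.6%. The receptors all lay on one side: 6 of 6 with enough UMIs were called higher in macrophage-like cells. C3ar1, the receptor of the C3a fragment, measured 337 CPM in macrophage-like cells against 0.213 CPM in fibroblast-like cells, and C5ar1, the receptor of C5a, 282 CPM in macrophage-like cells (198 in set 1 and 364 in set 2) against 1.02 CPM in fibroblast-like cells (1.70 and 0.377). Vsig4, a receptor of cleaved C3 on tissue macrophages, measured 21.4 CPM in macrophage-like cells (10.9 in set 1 and 31.5 in set 2) against 0.0386 CPM in fibroblast-like cells. Itgam, the alpha chain of complement receptor 3, measured 59.7 CPM in macrophage-like cells against 2.20 CPM in fibroblast-like cells, and 487 CPM in neutrophil-like cells.

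Among the lectin pathway genes Fcna (ficolin A) measured 143 CPM in macrophage-like cells (101 in set 1 and 184 in set 2) against 0.0773 CPM in fibroblast-like cells, a ratio of 1852, while Fcnb (ficolin B) measured 355 CPM in neutrophil-like cells. Colec12, a scavenger receptor of the collectin family, measured 670 CPM in macrophage-like cells against 116 CPM in fibroblast-like cells. Colec10 was called lower, with 0.0929 CPM in macrophage-like cells against 2.26 CPM in fibroblast-like cells. Of the classical and alternative pathway genes, Cfp (properdin, which stabilises the C3 convertase) measured 114 CPM in macrophage-like cells against 2.20 CPM in fibroblast-like cells. C2, the partner of C4b, measured 37.5 CPM in macrophage-like cells against 22.0 CPM in fibroblast-like cells and was not called. C1rl was called lower.

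Regulators lay mostly on the fibroblast side, with 6 of 9 called lower in macrophage-like cells and 2 not called. Cd55, which breaks up C3 convertases on the cell surface, measured 5.39 CPM in macrophage-like cells against 179 CPM in fibroblast-like cells, 33.3-fold lower. Vtn (vitronectin), which binds the terminal complex, measured 1.301 CPM in macrophage-like cells against 47.3 CPM in fibroblast-like cells, 36.4-fold lower. Csmd1, a membrane protein that limits complement, measured 0.186 CPM in macrophage-like cells against 8.99 CPM in fibroblast-like cells, 48.4-fold lower. Csmd1 measured 1477 CPM in Schwann-like cells, so its fibroblast level was small beside theirs. Cr1l, the mouse membrane regulator also called Crry, measured 32.8 CPM in macrophage-like cells against 40.8 CPM in fibroblast-like cells and was not called. None of the 7 terminal components had enough UMIs. The most abundant of them were C9, with at most 2.37 CPM in any named class, and Hc (C5), with 35.6 CPM in T or NK cell-like cells from 29 UMIs.

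Across the 33 clusters, the genes whose log2(CPM + 10) followed each member most closely were listed as a description over 11327 genes with at least 1000 UMIs. C1qa was followed by C1qc (Pearson r = 0.997), Trem2 (0.993) and C1qb (0.992). C1qc was followed by C1qa, Trem2 and Fcrls, and C1qb by Ccl24, C1qa and C3ar1. All of these genes peaked in the macrophage-like cluster, and their rank correlations were lower. Spearman rho was 0.34 for C1qa with C1qc and ranged from 0.22 (C1qc with Fcrls) to 0.76 (C1qa with C1qb). Pearson's r therefore rests largely on that 1 cluster, less so for C1qa with C1qb. C3 was followed by Hp (haptoglobin, 0.958), Clec5a (0.948) and Mcemp1 (0.939), which peaked in neutrophil-like clusters, with rho of 0.66 to 0.77. Serping1 was followed by Rarres2 (0.974), Nid1 (0.958) and Fstl1 (0.947), with rho of 0.951 to 0.969, C1s1 by Gstm2 (0.946), Cygb (0.935) and Ntrk2 (0.917), and C1ra by Podn (0.926), Fam171b (0.914) and Tspan11 (0.912). The correlations of C4b and Cfb were weaker: C4b with Pcolce2 (0.816), Gm16685 (0.804) and Fgf2 (0.797), and Cfb with Tnfsf9 (0.861), Ifi207 (0.854) and Ifi202b (0.849). Among the members themselves, Serping1 correlated with C1s1 (0.898) and C1ra (0.896), and C1ra with C1s1 (0.892). C4b correlated less closely with C1ra (0.755), Cfb (0.730), C1s1 (0.593) and Serping1 (0.591). Cfb did so with C1ra (0.704), Serping1 (0.582) and C1s1 (0.492), while C3 and Cfb did not move together (-0.06). The clusters share libraries and free RNA, so no test is attached to these values.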

How the data were processed

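Knee joint cells were profiled with the 10x Genomics 3′ v3 chemistry, per the labels' protocols. Reads were aligned and libraries merged with Cell Ranger 7.0.0, per the labels' protocols, on mm10, per the submitters' processing notes. The authors deposited whole-number UMI counts, not normalised, of 32285 genes in 24203 barcodes (257619292 UMIs). Of the gene IDs, 32235 matched GENCODE M21. No source used here states how intronic reads were treated.

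The members and gene lists were chosen with earlier results of these data known. The cell filter asked for at least 500 genes, at least 1000 UMIs and no more than 10% mitochondrial UMIs. Scrublet left out 3 cells (0.0198%), too few to have worked. Clustering in scanpy 1.11.5 used log values after scaling each cell to 10000, 2000 variable genes, 30 components, 15 neighbours and the Leiden method (leidenalg 0.10.2, resolution 1, seed 1). The complement, acute phase and interferon genes of the lists, and mitochondrial, ribosomal, Xist and Y-linked genes (190), did not enter the clustering. Other interferon-induced genes, such as Rsad2 and Iigp1, were not left out. A cluster took the class with the best mean marker log2 fold (10 CPM added) if the median was at least 1 and at least 3 markers reached 1, and otherwise stayed unnamed. Its markers had to be detected in at least 10% of its cells. Sub-clusters were formed after seeing the data, at resolution 0.5 for macrophage-like and 1 for fibroblast-like cells.

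Summed counts have exact Poisson intervals, ratios exact conditional binomial intervals and shares Clopper-Pearson intervals, all at 95%. Besides the members, the named genes were the called complement genes with the 3 largest ratios in each direction, the 2 most abundant per role and, for each member, the 3 most like genes. Genes that lead a cluster, and further genes given for context, were named after their values were seen. The ratio step recovered known fold changes in simulated Poisson counts, which held no spread between cells or libraries, no doublets and no free RNA. This checks the computation alone. The planned comparison of KO with WT was not run, because no label ties cells to a genotype. A few genes of the lists are not reported here.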

Additional observations from a re-analysis of the deposited data

How the results depend on the processing

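Under 22 alternatives of cell filter, clustering, naming, scaling, call rule, doublet treatment and left-out barcode set, 4 of them chosen after seeing the data, the calls of C1qa, C1qb, C1qc, C1ra, C1s1 and Serping1 were the same in 22 of 22, that of C4b in 19, that of Cfb in 17 and that of C3 in 9. Members called higher numbered 3 to 4 and lower 3 to 5. The log2 ratio of C3 between macrophage-like and fibroblast-like cells, -0.65 as reported, turned to 0.42 when a name also needed a mean marker log2 fold of 1.5, which left cluster 1 unnamed, and to 0.012 with complement genes kept in clustering. Cfb was called higher in macrophage-like cells under 5 alternatives, with a log2 ratio of 1.01 to 1.298, and C4b was called lower under 3, with -0.84 to -0.81. The median log2 ratio of all genes was -0.24, and scaling by the median ratio ended the call of C3 at -0.48. The C3 ratio of neutrophil-like over fibroblast-like cells ranged from 12.8 to 54.7 over the 22 alternatives, and the call rule was not rerun for it. All genes called higher, 1787 as reported, numbered 2683 with no minimum of UMIs, 942 with a minimum of 1000 and 923 with ratios of 4 or 0.25, and genes called lower, 4573 as reported, numbered 2114 and 2432 under the last 2.

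The fibroblast-like clusters were less stable. Between the clusters that held most cells of clusters 1 and 0, C3 stayed 4.06-fold to 8.29-fold higher in cluster 1 over 20 alternatives. Some of these, such as those of the call rule and the naming, left both clusters as they were and could not change the ratios. The clusters had also been chosen by their C3. Cfb turned to a ratio of 0.96 with at least 1000 genes and 2000 UMIs, and C1ra to 1.02 with complement genes kept. Between the clusters of highest and lowest C3, C4b ranged from 1.10 to 8.04, and Cfb turned to 0.96 and 0.93 under these 2 settings; the cause was not tested. The matched comparison was added after seeing the data. Depth limits the C1q values in fibroblast-like cells, which rest on 9 to 17 UMIs. No paired analysis was possible because each genotype is 1 deposited sample and no cell is tied to a genotype, library or experiment.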
